A study of Mus musculus with 6 samples.

Results

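DNA damage response and repair genes were measured in thymocytes of 3-week-old *Cd3e*-/- mice that did or did not carry the *SCL* and *LMO1* oncogenes. The 41 genes were a given list of factors of homologous recombination, interstrand crosslink repair, mismatch repair, excision repair and the damage checkpoint. The mouse array named 37 of them with at least 1 probe set of their own, and 35 of these passed a filter on low signal, against 12393 genes named and 8693 tested on the array as a whole. *Bard1* and *Xpa* lay below the filter. *Xrcc2*, *Xrcc3*, *Fancd2* and *Mdc1* had no probe set named for them alone and were not analysed here.

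Total RNA of thymocytes was hybridized to 6 Affymetrix mouse arrays. The 3 arrays of the first group came from C57BL6 mice that lacked *Cd3e* and expressed *SCL* from the *Sil* promoter and *LMO1* from the *Lck* promoter (SCLtg LMO1tg). The 3 control arrays came from mice of the same strain and age that lacked *Cd3e* and carried neither transgene. The series was made to find candidate genes for the self-renewal of pre-leukemic thymocytes. Nothing in the labels or methods ties the 3 arrays of a group to different animals, and their spread, on which every p-value rests, may be technical. Without CD3ε no pre-T cell receptor signals, and thymocytes stop at the CD4-CD8- (double negative) stages. In both groups *Ptcra* and *Rag1*, genes expressed at those stages, were well above the filter. Of listed genes of later thymocyte stages, *Cd8a*, *Cd8b1*, *Cd5* and *Ccr7* were below it. *Cd4* (5.27 to 5.80 over the arrays) and *Itm2a* (6.71 to 7.44) passed it.

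Homologous recombination copies a broken DNA end from the sister chromatid, and so works mainly in cells that are replicating or have replicated their DNA. BRCA1 and the MRE11-RAD50-NBN complex open the way for resection, RPA coats the single strand, and BRCA2 acts on the coated strand. The Fanconi proteins unhook crosslinks ahead of this step, the mismatch repair proteins remove mispaired bases behind the replication fork, and ATR with CHEK1 restrains the cell cycle while DNA is single-stranded. In early thymocytes the RAG proteins cut antigen receptor genes, and such cuts are mostly rejoined by end joining, a pathway outside the list.

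A check of the labels came first. *Lmo1*, the mouse *LMO1* gene, read 5.11, 5.07 and 4.86 (log2 RMA value) in the arrays labelled SCLtg LMO1tg and 6.64, 6.84 and 6.77 in the arrays labelled control. It was thus lower in the arrays labelled SCLtg LMO1tg, by −1.74 ± 0.14 (log2 difference ± SE, limma adjusted p = 8.33e-04), and whether its probe set reads the transgene was not tested. *Lyl1*, *Nfe2* and *Cpa3* are genes that the study describes as raised by the oncogenes. They differed by −1.22, −1.44 and −2.53, a direction opposite to the study's. *Cdc6*, *Cdkn1a* and *Slc4a1* are genes that the study lists as lowered, and it describes *Ptcra* as inhibited by SCL. They differed by 1.06, 1.14, 1.07 and 1.28, which is likewise opposite by label, although the groups overlapped for *Slc4a1*. *Cd3e*, which all mice lacked by genotype, read 8.56, 8.53 and 8.65 against 8.41, 8.42 and 8.72, far above the array medians of 5.57 to 5.70. Its probe set thus gave signal that goes against the genotype in both groups, and which part of the gene it reads was not tested. The difference was 0.07 (adjusted p = 0.873). *Tal1*, the mouse *SCL* gene, lay below the filter, at 4.55, 4.63 and 4.71 against 4.35, 4.27 and 4.44. These low values did not overlap and differed by 0.28, in the direction of the labels. Whether the *Tal1* probe set reads the transgene was not tested. All signs below follow the labels, as SCLtg LMO1tg minus control, and every sign would turn if the labels of the groups had been exchanged.

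No repair gene passed limma at a Benjamini-Hochberg adjusted p under 0.05. On the whole array 14 of 8693 genes passed (0.161%), against 0 of the 35 repair genes, whose lowest adjusted p was 0.195, for *Chek1*. The repair genes with the largest differences nevertheless lay on 1 side. At an unadjusted p under 0.05, 9 of 35 were higher in the arrays labelled SCLtg LMO1tg (25.7%), against 6.3% of all genes tested, and 0 of 35 were lower, against 3.14%. In 10 of 35 all arrays labelled SCLtg LMO1tg read above all control arrays (28.6%, against 7.32% of all genes), and in 1 of 35 all read below (2.86%, against 6.37%). The median difference was 0.14 over the 35 genes, 24 of them with a higher mean and 11 with a lower one, and −0.0080 over all genes tested. The genes were listed with earlier results of these arrays known, so these shares describe them and test nothing. In RNA from a mixed thymus, more cells of a type and more RNA per cell cannot be told apart.

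**Figure D1:**
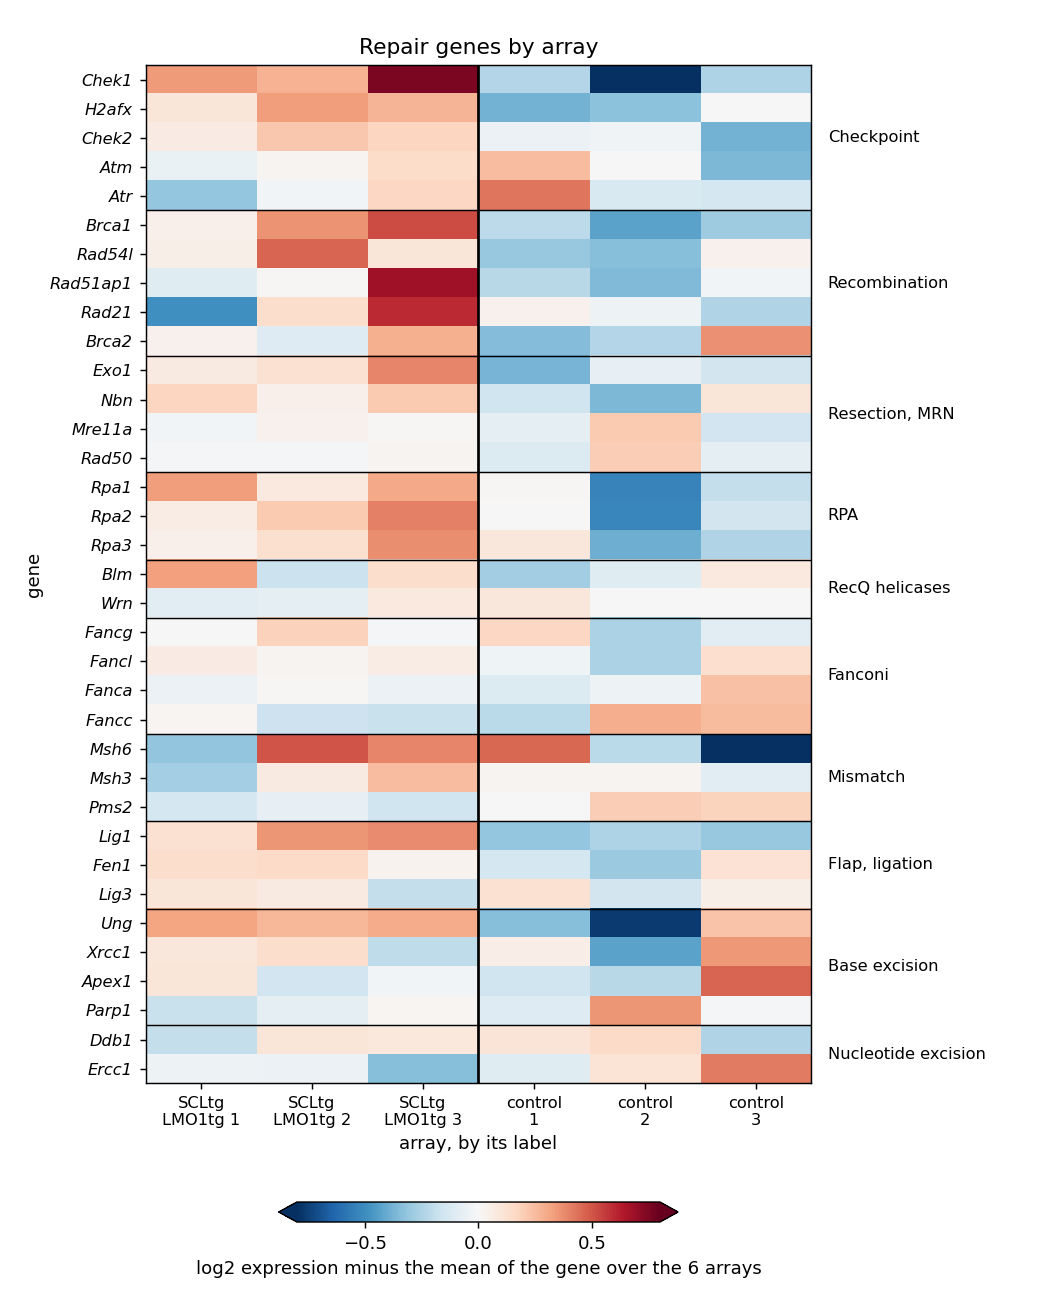
Expression of the 35 repair genes tested in each of the 6 arrays, as the log2 RMA value minus the mean of that gene over the 6 arrays; rows are genes grouped by pathway and columns are arrays by label, red above and blue below the mean, with colours saturated at the ends of the scale. *Chek1*, *Brca1*, *Lig1* and the RPA genes are mostly red on the left and blue on the right, while the Fanconi and nucleotide excision genes show no such split.

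The differences were unevenly spread over the pathways. The median was 0.45 for the 3 RPA subunits, 0.39 for the 5 recombination genes tested, 0.30 for the 5 checkpoint genes, 0.21 for the 3 flap and ligation genes and 0.15 for the 4 resection genes. It was 0.07 for the 2 RecQ helicases, 0.03 for the 3 mismatch repair genes, 0.02 for the 4 Fanconi genes, −0.02 for the 4 base excision genes and −0.15 for the 2 nucleotide excision genes. Of the pathways with 3 or more genes tested, RPA and recombination had all means higher in the arrays labelled SCLtg LMO1tg, and each of the others had means on both sides of 0. The standard error of a gene ranged from 0.13 to 0.32.

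The promoters of 3 of the genes with the lowest p are shown, since the motifs described below were searched in them. Sequences are from RefSeq on GRCm38.p6, 5′ to 3′ on the strand of the gene, from 250 bases before to 50 bases after the annotated start; all 3 genes lie on the minus strand. Capitals mark a searched motif. *Lig1* has several annotated starts in the table, and none is printed. No searched motif was found at any of these starts, nor in the promoter of *Ung*, which follows *Rpa1* in p.
Chek1 chr9:36726609-36726908: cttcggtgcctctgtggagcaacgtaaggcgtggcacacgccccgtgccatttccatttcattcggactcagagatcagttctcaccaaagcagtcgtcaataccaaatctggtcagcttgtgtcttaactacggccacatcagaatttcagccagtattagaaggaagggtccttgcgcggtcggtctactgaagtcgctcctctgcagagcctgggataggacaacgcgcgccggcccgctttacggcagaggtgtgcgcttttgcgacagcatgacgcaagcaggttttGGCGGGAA
Brca1 chr11:101551906-101552205: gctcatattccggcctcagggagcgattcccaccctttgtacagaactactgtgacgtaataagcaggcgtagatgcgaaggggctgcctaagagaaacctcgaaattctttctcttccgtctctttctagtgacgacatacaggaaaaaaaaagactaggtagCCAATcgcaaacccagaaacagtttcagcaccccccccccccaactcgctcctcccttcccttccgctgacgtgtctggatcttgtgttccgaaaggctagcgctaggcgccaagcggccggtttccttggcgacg
Rpa1 chr11:75348334-75348633: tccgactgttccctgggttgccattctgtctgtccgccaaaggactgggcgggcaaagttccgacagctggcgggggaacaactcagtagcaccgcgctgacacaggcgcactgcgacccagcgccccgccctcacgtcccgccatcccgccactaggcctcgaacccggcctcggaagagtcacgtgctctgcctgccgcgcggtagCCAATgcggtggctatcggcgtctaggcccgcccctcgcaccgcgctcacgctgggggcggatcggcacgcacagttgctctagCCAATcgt

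The E2F motif, through which E2F factors time genes to S phase, was searched as TTTCCCGC or TTTGGCGC on both strands, and the NF-Y box as CCAAT and the CHR element, found in many G2 and mitosis genes, as TTTGAA. Of the 41 genes, 33 had a promoter in the table. An E2F spelling was held by 7 of the 33 (21.2%: *Bard1*, *Brca2*, *Chek2*, *Fancg*, *Mdc1*, *Msh3* and *Msh6*), against 1.8% of all 27025 genes in the table and 3.55% of the 7047 genes tested on the arrays with a promoter in it. None of the 7 genes with an unadjusted p under 0.05 and a promoter in the table held one of these spellings. The 5 holders that were tested had a median difference of 0.14, and the 24 other tested genes one of 0.09. GGCGGGAA, a further spelling, shares letters with the reverse complement of the first and was added after the promoters had been seen. With it, *Chek1* (from base 42 after the start) and *Rad51ap1* were included, making 9 of 33 (27.3%, against 3.69% of all genes in the table and 6.83% of the tested genes). The CCAAT box was held by 19 of 33 (57.6%, against 41.1% of all genes in the table and 42.3% of the tested genes). It lay from base −86 in *Brca1* and from bases −42 and 42 in *Rpa1*. The CHR was held by 2 of 33 (6.06%, against 20.2% of all genes in the table and 14.3% of the tested genes). The 33 include genes that were not tested on the arrays. A match is a string of letters, not a bound site.

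Of the 5 checkpoint genes tested, 3 had groups that did not overlap, all of them higher, against 7.32% of all genes. *Chek1*, which halts the cycle when forks stall, read 7.50, 7.44 and 7.92 in the arrays labelled SCLtg LMO1tg and 6.93, 6.28 and 6.91 in the control arrays. The groups did not overlap, and the difference of 0.91 ± 0.21 was a 1.88-fold change with a 95% interval of 1.35 to 2.62 (adjusted p = 0.195). It was the largest difference of the 35 genes. Its other kept probe set overlapped between the groups and differed by 0.51 (adjusted p = 0.636 over probe sets). *H2afx*, annotated today as *H2ax*, encodes the histone H2A variant phosphorylated around breaks. It read 9.50, 9.74 and 9.67 against 9.02, 9.07 and 9.40, without overlap (0.47 ± 0.16, adjusted p = 0.388). *Chek2*, the effector of ATM, read 7.06, 7.22 and 7.17 against 6.96, 6.97 and 6.62, also without overlap, though by 0.30 ± 0.15 (adjusted p = 0.562) and by 0.19 without control array 3. The sensor kinases *Atm* and *Atr* differed by 0.07 and −0.11, with intervals of −0.32 to 0.47 and −0.55 to 0.33.

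All 5 recombination genes tested had higher means in the arrays labelled SCLtg LMO1tg. *Brca1*, which promotes resection and recruits BRCA2, read 6.997, 7.31 and 7.48 against 6.74, 6.53 and 6.67. The groups did not overlap (0.62 ± 0.16, adjusted p = 0.243), while the other kept probe set of *Brca1* differed by 0.0067. *Rad54l*, a DNA translocase of recombination, read 7.51, 7.93 and 7.56 against 7.16, 7.12 and 7.49 (0.41 ± 0.17, adjusted p = 0.510). The lowest array labelled SCLtg LMO1tg and the highest control array were only just apart for this gene, but both other kept probe sets of *Rad54l* were apart too, by 0.61 and 0.43. *Rad51ap1*, a DNA-binding recombination factor, read 6.52, 6.62 and 7.29 against 6.39, 6.26 and 6.59 (0.39 ± 0.21, adjusted p = 0.579). Its groups overlapped and SCLtg LMO1tg array 3 was far above the rest, without which the difference was 0.15. Of its other kept probe sets, 1 was apart by 0.62 and 1 differed by −0.13. *Brca2*, a mediator of strand exchange, and *Rad21*, a cohesin subunit that holds sisters together, differed by 0.14 and 0.17 with overlapping groups, and *Rad21* by −0.36 and 0.05 on its other kept probe sets. *Bard1*, the partner of BRCA1, read 4.24, 4.16 and 4.004 against 3.92, 3.89 and 4.19, below the filter.

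Of the 4 resection genes, only the exonuclease had groups that did not overlap, with a higher level, as 7.32% of all genes had. *Exo1*, which degrades the 5′ strand in resection and in mismatch repair, read 6.02, 6.06 and 6.34 against 5.57, 5.88 and 5.79 (0.39 ± 0.16, adjusted p = 0.473). *Nbn*, the subunit that ties the MRN complex to ATM, read 5.38, 5.26 and 5.42 against 5.05, 4.85 and 5.31, and only control array 3 reached into the range of the arrays labelled SCLtg LMO1tg (0.28 ± 0.16, adjusted p = 0.591). Without control array 2 the difference was 0.17. The catalytic partners *Mre11a* and *Rad50* were level, at 0.02 and −0.0033, with intervals of −0.31 to 0.35 and −0.32 to 0.32.

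The 3 subunits of RPA, which bind the same single strand as 1 complex in replication and in repair, had like differences. *Rpa1*, the large DNA-binding subunit, read 10.80, 10.55 and 10.77 against 10.47, 9.93 and 10.28 (0.48 ± 0.17, adjusted p = 0.431), and its other kept probe set was apart as well, by 0.45. *Rpa2*, the subunit phosphorylated on damage, read 7.86, 8.01 and 8.20 against 7.80, 7.28 and 7.65 (0.45 ± 0.17, adjusted p = 0.461), and its other kept probe set differed by 0.05. In *Rpa3*, the smallest subunit, which read 6.31, 6.40 and 6.64 against 6.37, 5.88 and 6.03, control array 1 lay inside the range of the arrays labelled SCLtg LMO1tg (0.36 ± 0.17, adjusted p = 0.542). Control array 2 was the lowest of the 6 arrays for all 3 subunits. Without it the differences were 0.33, 0.30 and 0.25.

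**Figure D2:**
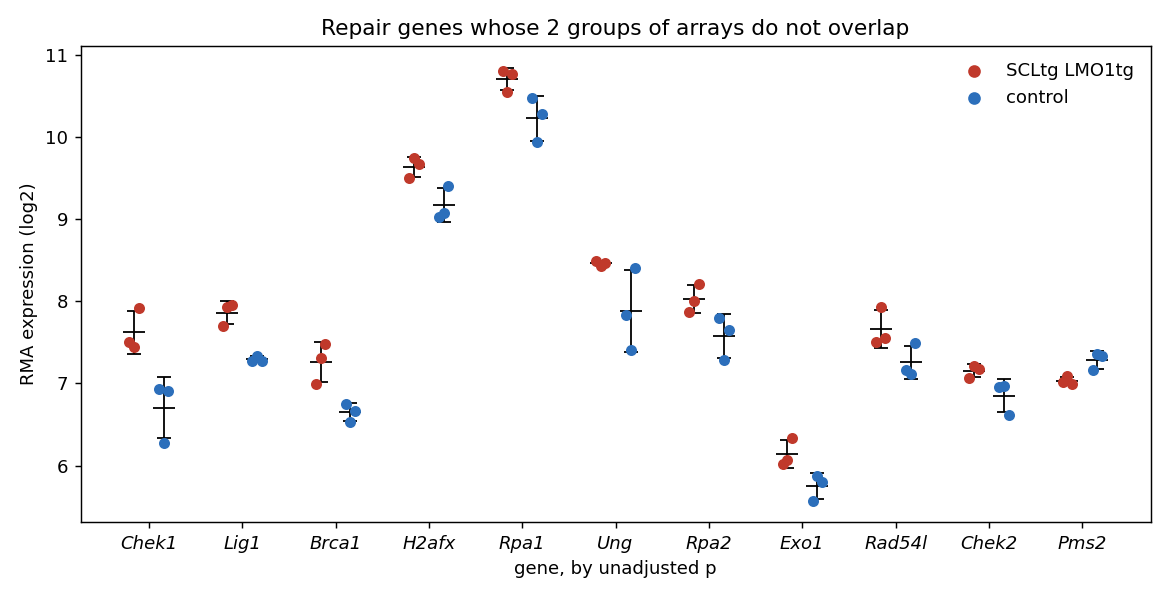
RMA expression (log2) by array of the 11 repair genes whose groups of arrays do not overlap, in the order of their unadjusted p; points are arrays (3 per group, red SCLtg LMO1tg, blue control), the dash is the mean of a group and the bar its SD. In 10 genes the SCLtg LMO1tg arrays lie above the control arrays, by a mean of 0.91 for *Chek1* and 0.30 for *Chek2*, and in *Pms2* they lie below by 0.25.

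Flap removal and ligation finish Okazaki fragments as well as repair patches. *Lig1*, the ligase of replication, read 7.70, 7.93 and 7.95 against 7.27, 7.33 and 7.28. The 3 control arrays were nearly equal and lay clear of the arrays labelled SCLtg LMO1tg (0.57 ± 0.14, adjusted p = 0.215). *Fen1*, the flap endonuclease, differed by 0.21 with overlapping groups, and by 0.29 on its other kept probe set. *Lig3*, the ligase that pairs with XRCC1 in the nucleus and serves mitochondrial DNA, differed by −0.01, and by −0.38 and 0.10 on its other kept probe sets. The intervals of the replicative and of the repair ligase were 0.26 to 0.88 and −0.35 to 0.32.

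In base excision, 1 of 4 genes had groups that did not overlap, with a higher level. Of all genes, 7.32% were apart and higher and 6.37% apart and lower, and a count out of 4 cannot be set apart from such shares. *Ung*, the glycosylase that removes uracil from DNA and works at replication forks, read 8.48, 8.43 and 8.47 against 7.83, 7.41 and 8.40. The arrays labelled SCLtg LMO1tg were nearly equal and the control arrays spread over almost 1 log2 unit, control array 3 lying just below the range of the former (0.58 ± 0.23, adjusted p = 0.461). Without control array 2 the difference was 0.35. *Apex1*, the endonuclease that cuts the abasic site, the scaffold *Xrcc1* and the strand-break sensor *Parp1* differed by −0.05, 0.02 and −0.16, each with overlapping groups. The other kept probe sets of *Parp1* differed by 0.10 and 0.19.

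The mismatch repair genes had differences of both signs. *Pms2*, the endonuclease subunit of MutLα, was the 1 repair gene with all SCLtg LMO1tg arrays below all control arrays, at 7.01, 7.09 and 6.997 against 7.16, 7.35 and 7.33 (−0.25 ± 0.14, adjusted p = 0.586). *Msh6*, which takes part in recognising base mismatches, read 7.72, 8.54 and 8.43 against 8.50, 7.82 and 7.22. It had the largest standard error of the 35 genes (0.38 ± 0.32, adjusted p = 0.676), with high and low arrays in both groups, and was 0.07 without control array 3 and 0.71 without control array 1. Its high arrays, SCLtg LMO1tg arrays 2 and 3 and control array 1, are the low hybridization set described below. With that set as a block in limma the difference of *Msh6* was 0.095 ± 0.18 (adjusted p = 0.908). *Msh3*, its counterpart for insertion and deletion loops, differed by 0.03.

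None of the 6 listed crosslink and nucleotide excision genes tested had groups that did not overlap. Of all genes, 7.32% were apart and higher and 6.37% apart and lower. The core complex genes *Fanca*, *Fancc* and *Fancg* differed by −0.06, −0.22 and 0.11, and *Fancl*, the ubiquitin ligase of that complex, by 0.10, all with overlapping groups. *Ercc1*, the partner of the XPF nuclease in excision and crosslink repair, differed by −0.29 ± 0.17 (adjusted p = 0.614), the lowest value of the 35 genes, overlapped between groups and was −0.15 without control array 3. *Ddb1*, an adaptor of the CUL4 ubiquitin ligase that reads ultraviolet damage, differed by −0.01. *Xpa*, the damage verifier, read 4.54, 4.71 and 4.47 against 4.66, 4.53 and 4.75, below the filter. The RecQ helicases *Blm* and *Wrn*, which unwind recombination intermediates, differed by 0.20 and −0.05, with intervals of −0.19 to 0.59 and −0.35 to 0.25.

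**Figure D3:**
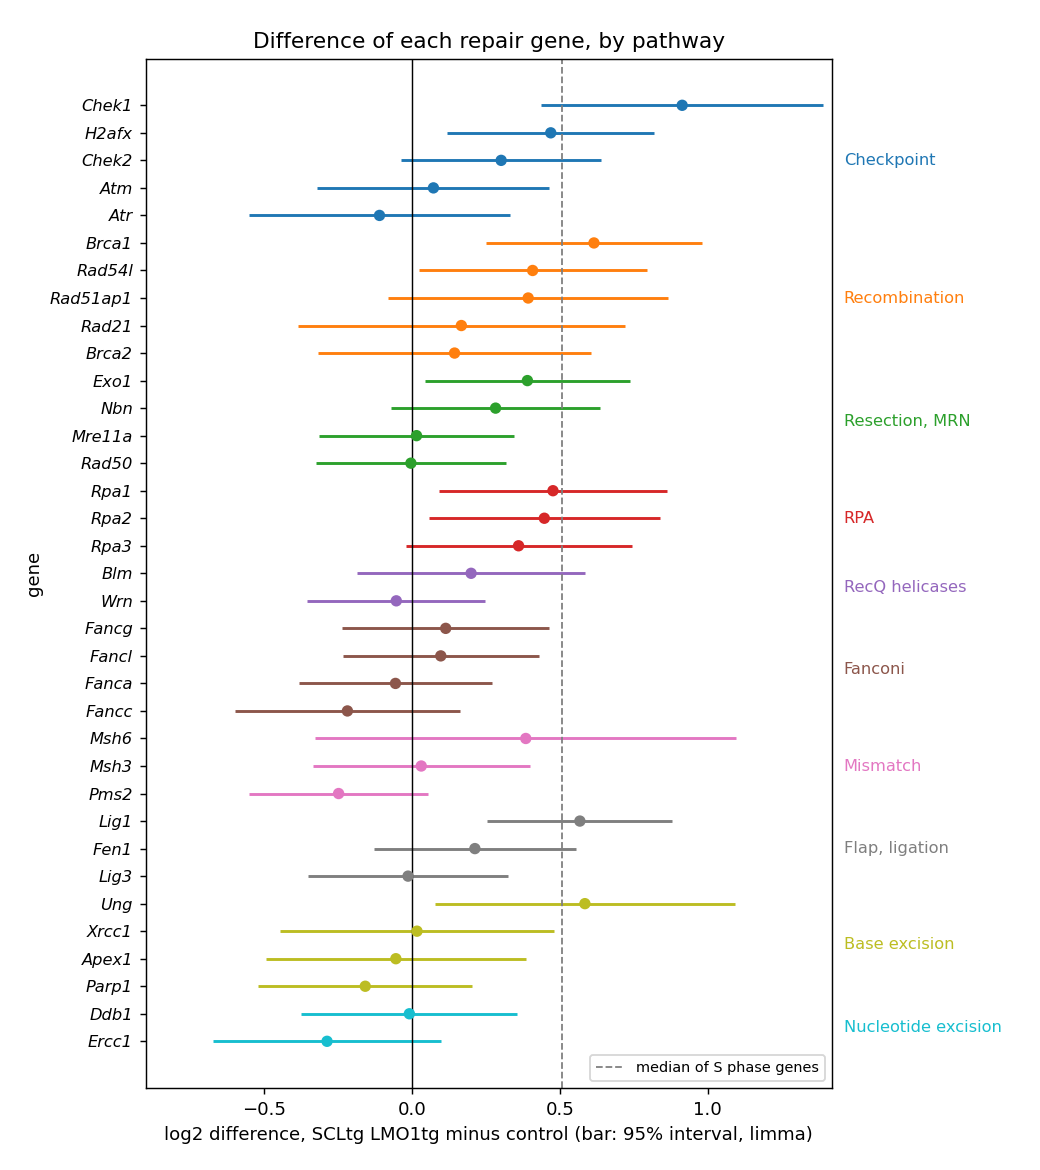
Log2 difference of each of the 35 repair genes, SCLtg LMO1tg minus control, with its 95% interval from limma (3 arrays a group), in pathway order; the dashed line is the median difference of the S phase genes. The intervals of 9 genes lie above 0, from *Chek1* at 0.91 to *Exo1* at 0.39, none lies below it, and no gene passes after adjustment over all genes.

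The arrays differed in how many repair genes they held at an extreme. SCLtg LMO1tg array 3 was the highest of the 6 for 10 of the 35 genes and control array 2 the lowest for 14, while SCLtg LMO1tg array 2 was the lowest for 0. The arrays also fell into sets by the signal of the bacterial hybridization controls, which are spiked into every sample. Their mean lay between 9.12 and 9.78 in SCLtg LMO1tg arrays 2 and 3 and control array 1, and between 10.56 and 10.78 in the other arrays. Within the low set and within the high set the differences were 0.75 and 0.91 for *Chek1*, 0.67 and 0.39 for *Lig1*, 0.65 and 0.40 for *Brca1*, 0.68 and 0.26 for *H2afx*, and 0.62 and 0.58 for *Ung*. They were 0.18 and 0.70 for *Rpa1*, 0.31 and 0.40 for *Rpa2*, 0.63 and 0.18 for *Exo1* and 0.58 and 0.20 for *Rad54l*. These are the 9 genes with an unadjusted p under 0.05. None of them overlapped between the groups, so a higher value within each set was fixed in advance and tests nothing. Over the 35 genes, 16 were higher and 5 lower in both sets, and 14 changed sign between them. RNA degradation was read from the gap between 3′ and 5′ probe sets, which was 2.50 ± 0.23 (SD over 3 arrays) against 2.29 ± 0.71 for *Actb* and 3.24 ± 0.23 against 2.85 ± 0.42 for *Gapdh*. Two-sided exact permutation tests gave p = 0.8 and p = 0.3, and could not have gone below 0.1.

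Replication and mitosis genes had higher means in the same arrays. Of 22 S phase genes tested (helicase, primase, polymerase and nucleotide synthesis), 0 passed limma after adjustment and the median difference was 0.51. At an unadjusted p under 0.05, 15 were higher (68.2%, against 6.3% of all genes tested). The groups did not overlap for 14, all of them higher, against 7.32% of all genes. *Rfc4*, of the clamp loader, differed by 1.08 (adjusted p = 0.0723), *Cdc6*, which helps load the helicase at origins, by 1.06 (adjusted p = 0.200), opposite to the study's direction, and the primase subunit *Prim1* by 0.88 (adjusted p = 0.0598). Of 16 mitosis genes, 0 passed, 15 were higher at that unadjusted p (93.8%, against 6.3% of all genes) and the median was 0.64. *Plk1* was at 0.88 (adjusted p = 0.0880), *Mki67* at 0.91 and *Bub1* at 0.88. By array, the median deviation of the S phase genes from their own means was 0.21, 0.21 and 0.41 in the arrays labelled SCLtg LMO1tg and −0.07, −0.34 and −0.37 in the control arrays. Over the 35 repair genes it was 0.04, 0.07 and 0.14 against −0.10, −0.22 and −0.02. The groups were apart on both lists, but the order of the control arrays was not the same. The part of cell cycle genes in the differences of the repair genes was not tested.

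**Figure D4:**
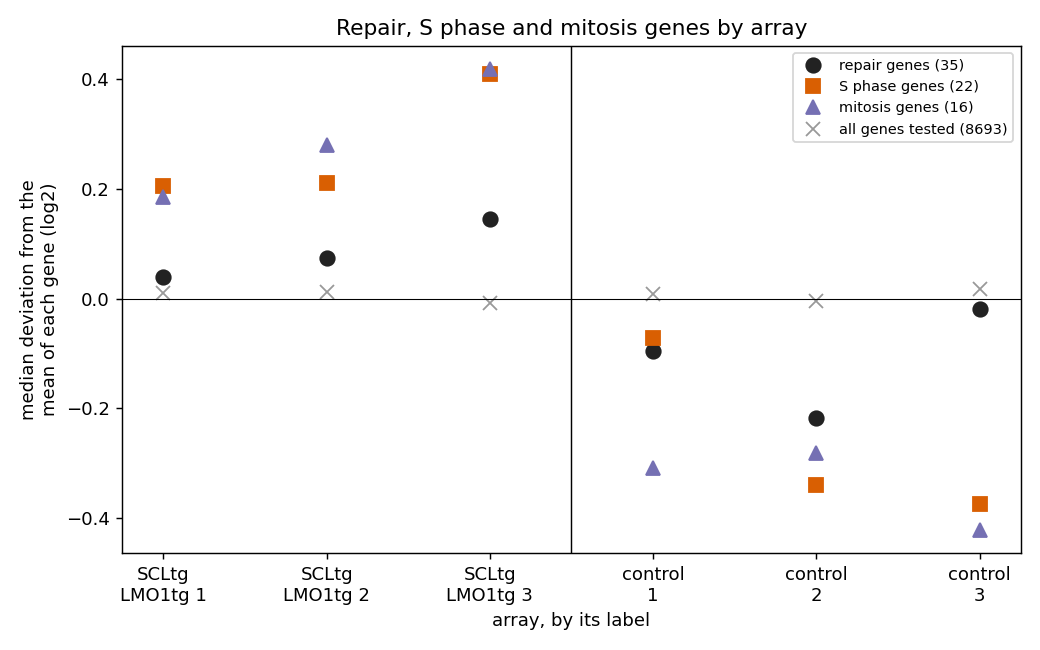
Median deviation (log2) of each list in each array from the mean of its genes over the 6 arrays, for 35 repair genes, 22 S phase genes, 16 mitosis genes and all 8693 genes tested. The repair genes range from −0.22 in control array 2 to 0.14 in SCLtg LMO1tg array 3, a narrower range than that of the S phase genes (−0.37 to 0.41), and all genes stay near 0.

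Markers of some other cells also differed in level between the groups. The mean level of 11 neutrophil genes tested was 7.11, 6.68 and 7.42 in the arrays labelled SCLtg LMO1tg and 5.68, 6.26 and 6.32 in the control arrays. Of the 11, 7 were apart and higher, against 7.32% of all genes, with *S100a8* at 2.09. The 5 erythroid genes tested averaged 6.91 to 7.78 against 6.72 to 6.93, so these averages overlapped. Their means were higher for 3 and lower for 2, with 1 gene apart and higher and 1 apart and lower. The 5 B cell genes averaged 5.89 to 5.98 against 6.09 to 6.32, with 3 means lower and 2 higher. Of these 5, 2 were apart and lower, *Cd79a* (−0.64) and *Ms4a1* (−0.77), against 6.37% of all genes. The macrophage and thymic stroma lists had medians of −0.02 and −0.13. Among 11 early thymocyte genes tested the median difference was 0.13, with 9 means higher and 2 lower. The groups did not overlap for 3 of the 11, all higher, against 7.32% of all genes. Of these, *Ptcra*, the pre-T cell receptor chain, was higher by 1.28 and passed limma (adjusted p = 0.0127), opposite to the study's direction. *Rag1* and *Rag2* differed by 0.97 and 0.82 (adjusted p = 0.184 and 0.266). The groups overlapped for every other gene of this list, among them *Il2ra* (0.0072) and *Cd3g* (−0.18). The part of these cells in the differences of the repair genes was not tested.

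Further genes of the same pathways were counted in the same way. Of 79 such genes 54 were tested, 0 passed limma after adjustment, 7 were higher and 1 lower at an unadjusted p under 0.05 (13.0% and 1.85%, against 6.3% and 3.14% of all genes), and the median difference was 0.13. The largest was *Hells*, a chromatin remodeller of the SNF2 family, at 1.24 (adjusted p = 0.371), with 6.60, 7.24 and 8.05 against 6.54, 6.33 and 5.30. *Rad23b*, which stabilises the XPC damage sensor, differed by 0.94 (adjusted p = 0.299), and *Usp1*, which removes ubiquitin from FANCD2 and PCNA, by 0.75 (adjusted p = 0.436). Of the 54 genes, 7 were apart and higher, against 7.32% of all genes, and 1 was apart and lower, against 6.37%. The 7 were *Hells*, *Rad23b*, *Tipin* of the fork protection complex (0.63), *Ube2t*, the ubiquitin-conjugating enzyme of the Fanconi pathway (0.50), *Smc6* (0.48), *Eme1* (0.22) and *Ercc4* (0.20). *Pcna*, the sliding clamp, differed by 0.71 with overlapping groups. The gene that was lower, *Ogg1*, the glycosylase for oxidised guanine, differed by −0.40 (adjusted p = 0.502), without overlap between the groups.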

How the data were processed

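Thymocyte RNA was measured on 6 Affymetrix arrays, 3 per group, and groups and replicate numbers were taken from the titles. The deposited values are log2 numbers, 1 per probe set and array (22690 probe sets), which the authors made with RMA of the affy package (version not given in the sources used here). For their own comparison, absent calls of MAS5 served as a filter before rank products; these calls could not be repeated here. Values give the relative signal of a probe set across arrays; with 3 arrays a group their precision is low.

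Probe sets with exactly 1 gene in the platform annotation were kept where at least 3 of 6 arrays reached the 40th percentile of the array, and each gene was read by its kept probe set with the highest mean. The limma package (3.58.1, R 4.3.3) compared the groups over all 8693 genes, with Benjamini-Hochberg adjustment and without covariates. Tested on data simulated with 8693 genes of 3 against 3 arrays, limma found 76% of genes changed by 1 log2 unit and 96% of those changed by 2. The simulated noise was normal and independent between genes, without sets of arrays, so these shares need not hold for the real arrays. Named are all listed genes, with values by array for those whose groups did not overlap and for the 14 with the lowest p. Up to 3 genes of each further list, and genes that check labels and cell types, are named too. *Usp1*, *Tipin*, *Ube2t*, *Smc6*, *Pcna*, *Ogg1*, *Eme1*, *Ercc4*, *Aen*, *Il2ra*, *Cd3g*, *Cd79a*, *Ms4a1* and *Slc4a1* were named after their values were seen, to complete a count or the check of labels. The genes, lists and tests were chosen with earlier results of these data known. Residuals of same-numbered arrays correlated at −0.64, 0.01 and −0.38, so numbers were not taken as pairs. Rank products were recomputed over 9 pairwise differences with 100 permutations. The alternatives are given in the closing section.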

Additional observations from a re-analysis of the deposited data

How the results depend on the processing

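No repair gene passed limma in any alternative except array weights, where 7 passed (*Chek1*, *Lig1*, *Brca1*, *H2afx*, *Ung*, *Rpa2* and *Rad54l*), as did 7 further pathway genes. That fit called 547 genes, raised the median over the repair genes to 0.24 and made 14 of them higher and 1 lower at an unadjusted p under 0.05. It gave SCLtg LMO1tg array 2 a weight of 4.96 and the other arrays 0.44 to 1.45. The share of all genes at that unadjusted p was not counted in this or any other alternative fit. Counts of repair genes at that p in this section thus have no share of all genes beside them. Rank products at false positives under 0.1 called 88 genes, with *Chek1* as 1 repair gene and 2 further pathway genes, and under 0.01 called 24 genes and no repair gene. Over all genes, 31 passed after quantile normalization, 28 once the hybridization set was blocked and 33 at an adjusted p under 0.1. Paired analysis, with the replicate number as a block, called 9 genes and no repair gene, and 6 repair genes had an unadjusted p under 0.05. Leaving out 1 array gave 7 (without control array 2) to 27 genes (without control array 1), 8 without SCLtg LMO1tg array 2 or 3, and 0 repair genes each time. Repair genes higher at an unadjusted p under 0.05 then numbered 4 (without SCLtg LMO1tg array 2 or 3), 5 (without control array 2) and up to 10, and lower ones 0 to 2 (2 without control array 1). The median stayed between 0.12 and 0.20 when 1 array was left out, and was 0.14 and 0.13 within the low and the high hybridization set; it was 0.096 after quantile normalization, with 6 genes higher at that unadjusted p, and 0.095 in the hybridization block. An E2F share of 3.03% came from the second spelling alone.

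Signs turned only in genes with small differences or on other probe sets. With array weights *Atr* was 0.014, *Mre11a* −0.054, *Lig3* 0.087 and *Ddb1* 0.0093. With median centring *Lig3* was 0.035, *Ddb1* 0.040 and *Rad50* 0.045. With the hybridization block *Apex1* was 0.023, *Rad21* −0.0049, *Atm* −0.021, *Msh3* −0.050 and *Rad50* 0.023. With the mean of probe sets *Parp1* was 0.042 and *Rad21* −0.047, and after quantile normalization *Xrcc1* was −0.0084. Other probe sets gave 0.046 for *Apex1*, −0.36 for *Rad21*, −0.13 for *Rad51ap1*, −0.019 for *Fancg*, 0.098 and 0.19 for *Parp1*, 0.044 for *Wrn* and 0.10 for *Lig3*. Leaving out 1 array spread *Atr* from −0.22 to 0.076, *Xrcc1* from −0.19 to 0.19, *Ddb1* from −0.13 to 0.086, *Apex1* from −0.18 to 0.16, *Rad50* from −0.059 to 0.093, *Rad21* from −0.090 to 0.45, *Msh3* from −0.084 to 0.18, *Lig3* from −0.089 to 0.079, *Mre11a* from −0.058 to 0.13, *Fancl* from −0.0032 to 0.19, *Fanca* from −0.12 to 0.048 and *Atm* from −0.087 to 0.21. The cause was not tested.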

Other observations

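Targets of p53, the factor that the damage kinases stabilise, had a median difference near 0. Of 12 tested, 0 passed limma after adjustment and the median difference was 0.02. At an unadjusted p under 0.05, 2 were higher (16.7%, against 6.3% of all genes tested). *Cdkn1a*, the cyclin-dependent kinase inhibitor p21, read 8.86, 8.61 and 8.82 in the arrays labelled SCLtg LMO1tg and 7.95, 7.55 and 7.35 in the control arrays. The groups were far apart (1.14 ± 0.18, adjusted p = 0.0512), in a direction opposite to the study's by label, and the difference was 0.76 and 1.40 within the low and the high hybridization set. *Polk*, a translesion polymerase, differed by 0.42 (adjusted p = 0.378), also without overlap. Of the 12 targets, these 2 were apart and higher, against 7.32% of all genes. In 1, *Aen*, the groups were apart and lower (−0.17), against 6.37% of all genes.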
